A study of Homo sapiens with 6 samples.

Results

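Cytosolic ribosomal protein (RP) genes were the subject of the comparison. They were chosen by symbol alone among the protein-coding genes of GENCODE 44, without the RPS6K kinases, and the rule itself uses no measured value. It took RPL or RPS with a number, then at most a letter A, X, Y or L and further digits. RPLP0 to RPLP2 and RPSA were also taken, and RPL or RPS symbols with other endings fall outside the rule. The rule gave 86 genes, 52 of the large subunit and 34 of the small subunit, on 22 chromosomes, with 12 on chromosome 19. In the files 35810 genes had a matched transcript, 85 of the 86 RP genes among them. After a filter on low counts (at least 10 in at least 3 libraries) 13737 genes were tested, 81 of them RP genes.

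Poly(A)+ RNA was sequenced from DLD-1, an established line of colorectal adenocarcinoma cells, and every library came from the SPT5-AID genotype, in which the elongation factor SPT5 carries an auxin-inducible degron. Cells expressed either an shRNA against ARMC5 (shARMC5, 3 libraries) or a non-targeting shRNA (shNT, 3 libraries). ARMC5 is a substrate adaptor of the Cullin 3 ubiquitin ligase, and the comparison asks how mRNA levels differ once it is depleted. No auxin treatment is named for these libraries, and which ARMC5 shRNA construct was used is not given in the sources used here. The labels number the replicates without saying that they are separate cultures, and the study's methods call them biological replicates, so the P values measure the spread between these libraries.

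The cytosolic ribosome is assembled from ribosomal RNA and one copy of most RPs, so the cell needs these proteins in matched amounts. RP genes are among the most highly expressed genes of growing cells. In vertebrates most of their mRNAs begin with a cytosine followed by a run of pyrimidines, the 5′ terminal oligopyrimidine (TOP) motif, through which mTORC1 and LARP1 control translation without a matching change in mRNA amount.

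Annotated 5′ ends are shown, with or without this motif, for the genes on which the results turn. Each line gives the 6 bases before and the 20 bases from the annotated start, 5′ to 3′ on the gene's strand, from RefSeq windows on GRCh38.p14, and capitals mark the run of pyrimidines that begins at the first transcribed base. RPL24, RPL36A and RPL9 are the genes that passed the test.
RPL24: ttctctCTTTCTTTTCgccatctttt
RPL36A: cggtttCTTTCTTTCCgcgccgatag
RPL9: gacgacagacgttctttctttgctgc
RPL41, RPL27A and RPS18 are shown as 3 of the 5 genes with the highest levels.
RPL41: gcctttCTCTCggccttagcgccatt
RPL27A: gccttcCTTTTTCgtctgggctgcca
RPS18: tccgctCTCTCTTCCacaggaggcct
RPL22 with RPL22L1 and RPS27 with RPS27L are paralog pairs whose levels are compared, and RPL7L1 is a low paralog of RPL7.
RPL22: cacctcCCTTTCTaactccgctgccg
RPL22L1: agcttcCTCTCTgctctcgcggccga
RPS27: ttcgctCCTTTCCggcggtgacgacc
RPS27L: ccgagcgcagatcgcttgcagcttgc
RPL7L1: ggcgccgtagctaggagcggacgcca
The windows lie at chr3:101686699-101686724 (RPL24, minus strand), chrX:101391005-101391030 (RPL36A, plus strand) and chr4:39458903-39458928 (RPL9, minus strand). Those of the abundant genes lie at chr12:56116627-56116652 (RPL41), chr11:8682786-8682811 (RPL27A) and chr6:33272069-33272094 (RPS18), all on the plus strand. Those of the paralogs lie at chr1:6199576-6199601 (RPL22, minus), chr3:170870176-170870201 (RPL22L1, minus), chr1:153990756-153990781 (RPS27, plus), chr15:63157458-63157483 (RPS27L, minus) and chr6:42879610-42879635 (RPL7L1, plus). RPL24 and RPL36A start with runs of 10 pyrimidines, whereas the annotated first base of RPL9, RPS27L and RPL7L1 is a purine. Only a run at the annotated first base was counted, and the window of RPL9 holds a run of pyrimidines further in.

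Among RP genes 66 had a RefSeq window whose start was also the start of the GENCODE canonical transcript. A C followed by at least 4 pyrimidines opened 48 of these 66 (72.7%), against 682 of 14586 protein-coding genes with such a window (4.68%). The run had a median length of 8 bases among the 48 and reached 19. The letters CCGGAAG, an ETS-type motif searched on both strands of the window from 250 bases before to 50 bases after the start, were in 23 of the 66 (34.8%) and in 15.0% of all windows. These are matches of letters and say nothing of a factor's binding.

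**Figure D1:**
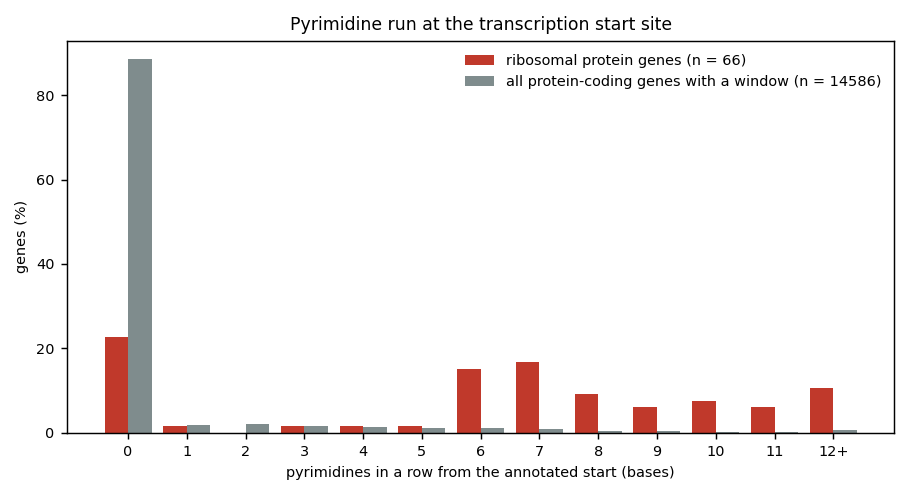
Percentage of genes (vertical axis) by the number of pyrimidines in a row from the annotated transcription start (horizontal axis, bases), for 66 RP genes and for all 14586 protein-coding genes with a window. No pyrimidine opened 22.7% of RP genes and 88.5% of all genes, and 7 RP genes had a run of 12 or more.

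The libraries held 26201112 to 40866478 estimated reads. ARMC5, the targeted gene, fell in shARMC5 by 1.09 on the log2 scale (SE 0.080, edgeR adjusted P = 5.32e-07). Its level was 10.76, 11.97 and 12.93 CPM (counts scaled to library size with edgeR's TMM factors) in shARMC5 and 23.03, 25.94 and 26.73 CPM in shNT, on 326 to 841 reads. The groups did not overlap, and P was 0.1 in an exact permutation test (two-sided), which is as low as 3 against 3 libraries can reach. Transcripts of keratins and other epithelial markers, 8 genes in all, summed to 8699 to 9000 TPM (a length-corrected unit) in shARMC5 and to 7706 to 8230 TPM in shNT, with KRT18, KRT8 and KRT19 called higher and VIL1 called lower. Fibroblast, leukocyte and endothelial markers, each list on its own, summed to at most 3.21 TPM in any library. In bulk RNA a smaller number of cells of a kind and less RNA per cell cannot be told apart.

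RP genes showed few differences in mRNA level between shARMC5 and shNT. Of 81 tested genes 3 passed the test (adjusted P below 0.1, edgeR's quasi-likelihood test with Benjamini-Hochberg adjustment over all genes), or 3.70%, against 7.75% of all tested genes. RPL9 and RPL24 were higher, where 4.44% of all genes were called higher, and RPL36A was lower, where 3.30% of all genes were called lower. Of the 2382 genes averaging 100 CPM or more, a limit chosen after the values were seen, 15.3% passed. The median level of those genes was 170 CPM, below the 674 CPM of the RP genes. All 3 called genes were among the 49 tested of the large subunit. Of the 32 tested of the small subunit 0 passed, 1 of them (RPS27) had an unadjusted P below 0.05, and DESeq2 also called 0.

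The median log2 fold change of the 81 genes was -8.28e-05, beside -0.0014 over all tested genes, with 40 genes above 0 and 41 below. The values ran from -0.90 (RPS9) to 0.15 (RPL9), and without RPS9 from -0.11 to 0.15 with an SD of 0.035. A log2 change smaller than 0.1 in size was found for 78 of the 81 (96.3%), against 58.9% of all genes and 82.2% of the genes with at least 100 CPM. The SE had a median of 0.028, against 0.065 over all genes. The 95% interval lay within 0.25 of 0 on the log2 scale for 79 of the 81, the exceptions being RPS9 and RPL39L, and its half-width had a median of 0.060, or 4.24%. An unadjusted P below 0.05 was reached by 6 of the 81 (7.41%) and by 18.1% of all genes.

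**Figure D2:**
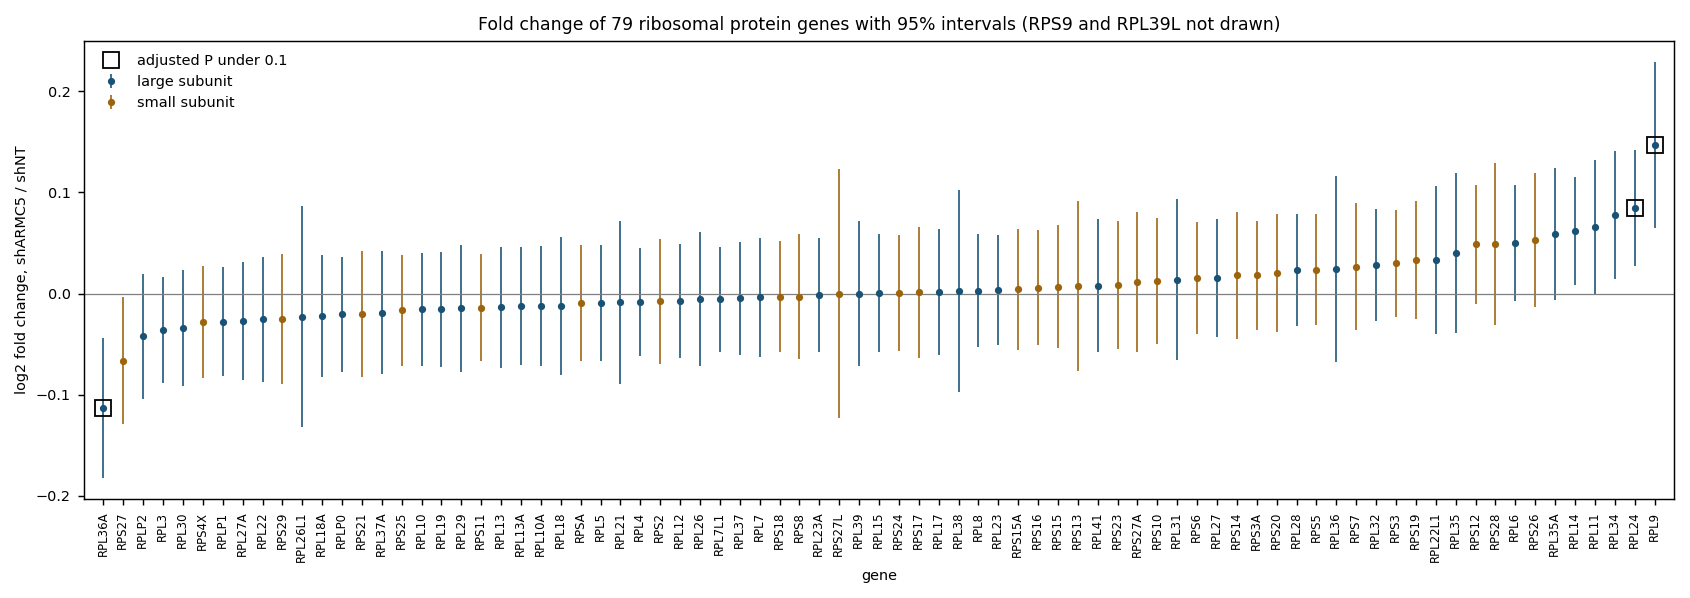
Log2 fold change of shARMC5 over shNT (vertical axis) for 79 tested RP genes ordered by value (horizontal axis); points are edgeR estimates, bars are 95% intervals, and squares mark adjusted P below 0.1. RPS9 and RPL39L are not drawn because their intervals are wide; the rest lie between -0.11 (RPL36A) and 0.15 (RPL9).

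**Figure D3:**
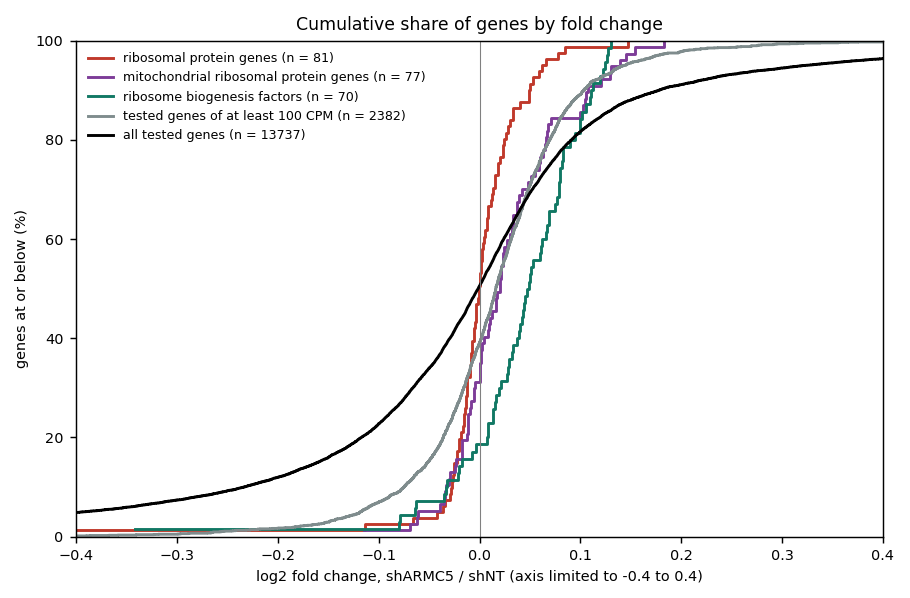
Cumulative percentage of genes (vertical axis) by log2 fold change (horizontal axis, limited to -0.4 to 0.4) for 81 RP genes, 77 mitochondrial RP genes, 70 ribosome biogenesis factors, 2382 genes of at least 100 CPM and all 13737 tested genes. The line of the RP genes is the steepest around 0, with a median of -8.28e-05, and that of the biogenesis factors has a median of 0.05.

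RPL9, a protein of the large subunit near its stalk base, had the largest increase. It was at 61.3, 62.7 and 62.8 CPM in shARMC5 and at 55.2, 56.5 and 57.0 CPM in shNT, so that the groups did not overlap. The log2 fold change was 0.15 (SE 0.039, adjusted P = 0.0385), a rise of 10.7% with a 95% interval of 4.59% to 17.2%. The gene spans 39452587 to 39458931 of chromosome 4 on the minus strand. Its 1584 to 2472 reads per library gave it only 104 TPM, far below most RP genes, and transcripts without a match in the annotation were left out of gene sums, so this value may cover part of its RNA. Its call was lost when an offset for transcript length was fitted (adjusted P = 0.317 in edgeR and 0.281 in DESeq2), although the log2 fold change stayed at 0.15, and without replicate 2 or 3 of shARMC5 or replicate 1 of shNT (0.139, 0.112 and 0.144 in edgeR).

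RPL24, a protein at the interface of the subunits, was at 719, 745 and 735 CPM in shARMC5 and at 675, 706 and 692 CPM in shNT. Again the groups did not overlap, but the lowest shARMC5 library lay only slightly above the highest shNT library. The log2 fold change was 0.084 (SE 0.027, adjusted P = 0.0911), a rise of 6.03% with an interval of 1.89% to 10.3%. The gene spans 101681091 to 101686733 of chromosome 3 on the minus strand and had 18538 to 29373 reads. It was not called under 10 of the 18 alternatives tried, including those without replicate 2 or 3 of shARMC5 (adjusted P = 0.294 and 0.214 in edgeR) or replicate 1 or 3 of shNT (0.277 and 0.190).

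RPL36A, a protein of the large subunit encoded on the X chromosome (101390824 to 101396155, plus strand), was at 337, 318 and 323 CPM in shARMC5 and at 335, 358 and 364 CPM in shNT. The first replicate of shARMC5 lay within the range of shNT, so that the groups overlapped on this scale, and the gene is described after its values were seen. In TPM the groups were apart, at 1559 to 1661 in shARMC5 and 1732 to 1790 in shNT. It fell by 0.11 on the log2 scale (SE 0.033, adjusted P = 0.0600), with an interval of -0.18 to -0.04. The pseudogene RPL36AP37 was given 232, 720 and 294 reads in shARMC5 and 225, 0 and 0 in shNT. With pseudogene reads added to their parent genes the log2 fold change of RPL36A was -0.068 (adjusted P = 0.195). Reads of the pair cannot be told apart with certainty, and 9 of 18 alternatives did not call the gene, including those without replicate 2 or 3 of shARMC5 (adjusted P = 0.235 and 0.167 in edgeR) or replicate 2 or 3 of shNT (0.162 and 0.223).

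On the CPM scale the groups did not overlap for 4 of the 81 RP genes (4.94%), against 23.4% of all tested genes. They were RPL9, RPL24, RPL34 and RPL14, all higher in shARMC5. On the TPM scale, which corrects for effective length, they did not overlap for 13 of the 81 (16.0%), against 16.3% of all genes, with 4 higher (RPL9, RPL24, RPL34 and RPL11) and 9 lower, where 9.65% of all genes were lower. Only RPL9, RPL24 and RPL34 were apart on both scales, and the count and its direction therefore depended on the scale, a comparison added after the data were seen. RPL34 was at 224, 219 and 234 CPM in shARMC5 and at 210, 216 and 216 CPM in shNT, with a log2 fold change of 0.078 (SE 0.030, adjusted P = 0.169), or 0.049 without replicate 3 of shARMC5. RPL14 was at 836, 853 and 833 CPM against 805, 815 and 795 CPM, with a log2 fold change of 0.062 (SE 0.025, adjusted P = 0.202). Neither of these passed the threshold in the main edgeR fit, and edgeR called both with the replicate number as a block. DESeq2 called RPL14 (log2 fold change 0.060, adjusted P = 0.0996), and both genes are named because of their values. RPS27, a small subunit protein with a zinc finger, was at 487, 501 and 494 CPM in shARMC5 and at 494, 529 and 529 CPM in shNT (log2 fold change -0.066, adjusted P = 0.247). Its groups overlapped in CPM and were apart in TPM, at 3260 to 3388 in shARMC5 and 3480 to 3624 in shNT.

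RPS9, which binds early to the RNA of the small subunit, stood apart by its spread. It was at 68.9, 58.2 and 24.4 CPM in shARMC5 and at 114, 123 and 48.4 CPM in shNT, on 616 to 3985 reads. The third replicate was the lowest in both groups, and the groups overlapped. The log2 fold change of -0.90 had an SE of 0.56 and an adjusted P of 0.503, and its interval ran from -2.42 to 0.63. Over the 18 alternatives the log2 fold change ran from -1.21 to -0.59, the latter without replicate 3 of shARMC5. With the replicate number as a block RPS9 was called lower (adjusted P = 0.0137 in edgeR). Its coefficient of variation was 45.9% in shARMC5 and 42.8% in shNT, the highest of the RP genes in both groups, and its level of 59.2 to 307 TPM lay below that of every other small subunit gene without a paralog name. As for RPL9, transcripts without a match were left out of its sum.

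**Figure D4:**
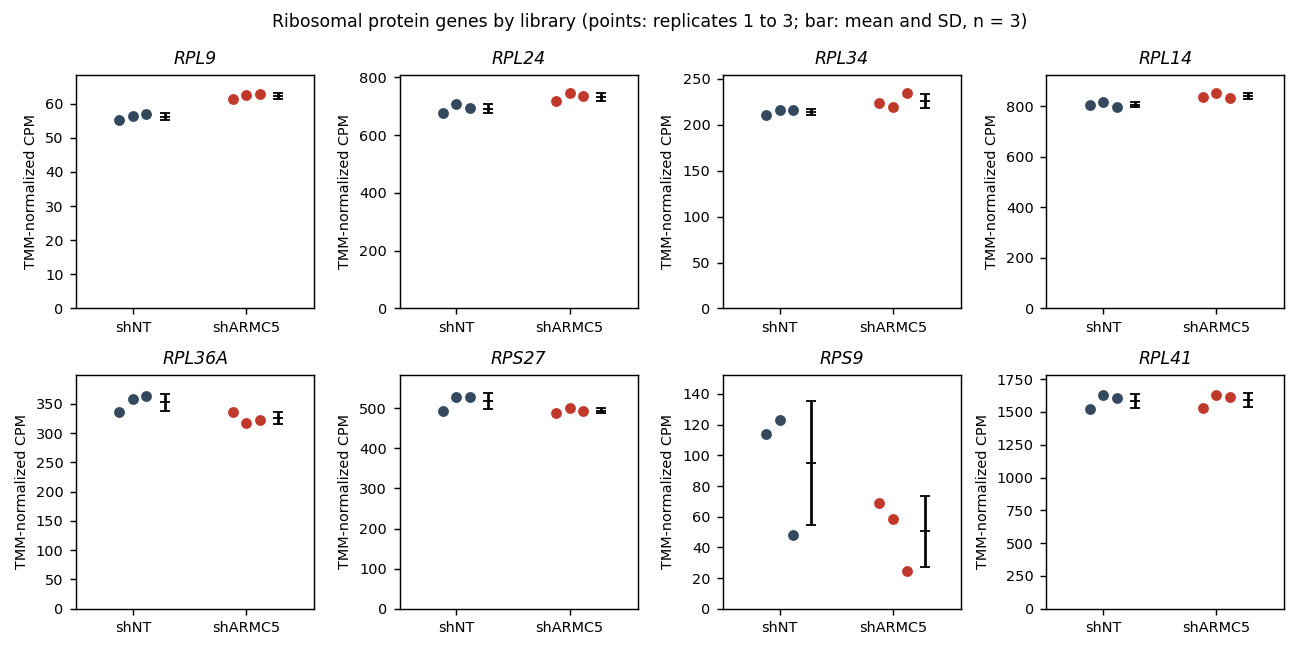
Level in TMM-normalized CPM (vertical axis, from 0) of RPL9, RPL24, RPL34, RPL14, RPL36A, RPS27, RPS9 and RPL41 in shNT and shARMC5; points are libraries and bars give the mean and SD (n = 3). RPL9 separated by group at 55.2 to 57.0 against 61.3 to 62.8 CPM, and RPS9 varied from 24.4 to 123 CPM.

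RPL5 and RPL11, which form a complex with 5S ribosomal RNA and can bind MDM2, did not pass. RPL5 was at 996, 1028 and 1021 CPM in shARMC5 and at 1009, 1051 and 1004 CPM in shNT, with a log2 fold change of -0.01 and an interval of -4.53% to 3.41%. RPL11 was at 677, 675 and 715 CPM against 632, 667 and 676 CPM, with a log2 fold change of 0.066 (SE 0.031, adjusted P = 0.282), or 0.037 without replicate 3 of shARMC5 and 0.038 without replicate 1 of shNT. In CPM the groups overlapped for both genes, and in TPM those of RPL11 were apart, at 1886 to 1951 in shARMC5 and 1831 to 1861 in shNT. RACK1, a WD40 protein of the small subunit whose symbol falls outside the rule, differed by 0.026 on the log2 scale (adjusted P = 0.646). For FAU, which encodes an RP fused to a ubiquitin-like protein, the value was 0.015 (adjusted P = 0.855).

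RP genes took a similar share of the reads in both groups. Of the reads given to genes, 6.20%, 6.30% and 6.28% fell on RP genes in shARMC5 and 6.22%, 6.45% and 6.29% in shNT (6.26% ± 0.055 and 6.32% ± 0.117, SD, n = 3). Per length, they made up 17.6%, 18.0% and 17.5% of the TPM of matched genes in shARMC5 and 18.1%, 18.4% and 17.5% in shNT. The ranges overlapped on both scales. The summed TPM of the large subunit was 1.48 to 1.49 times that of the small subunit in every library.

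The common level of the RP genes differed more among the shNT libraries than between the groups. As the median over the 81 genes, the deviation from each gene's own mean was -0.016, 0.0073 and 0.013 in shARMC5 and -0.038, 0.032 and 0.0036 in shNT on the log2 scale of CPM. The first and second replicates of shNT were the lowest and the highest of all, with 4 and 64 of the 81 genes above their own mean. Within shARMC5 the coefficient of variation of RP genes was 1.56% at the median, and within shNT it was 3.08%, against 4.87% and 4.97% over all tested genes.

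RP genes held 60 of the 100 highest places by TPM, and 70 of the 85 with a transcript reached 1000 TPM. RPL41, which encodes a very short peptide of the large subunit, was the highest, at 6511, 6918 and 6701 TPM in shARMC5 and 6755, 6974 and 6634 TPM in shNT. RPS2 followed at 5655 to 5774 TPM in shARMC5 and 5523 to 6101 TPM in shNT, then RPL27A at 4579 to 4622 and 4690 to 4951 TPM. RPS18 was at 3783 to 3999 TPM in shARMC5 and 3822 to 4032 TPM in shNT, and RPLP2, a stalk protein, at 3490 to 3596 and 3590 to 3833 TPM. Among these 5 genes ranges of neighbours did not overlap, except that some libraries of RPS18 and RPLP2 met. The next gene, RPL8, was at 3438 to 3612 TPM in shARMC5 and 3435 to 3691 TPM in shNT, which overlapped RPLP2. The groups did not differ beyond the threshold for any of the 5 highest genes, whose log2 fold changes ran from -0.042 (RPLP2) to 0.0079 (RPL41). Leaving out paralogs, RPS9 and RPL9, 74 genes spanned 539 to 6749 TPM with a median of 2214.

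**Figure D5:**
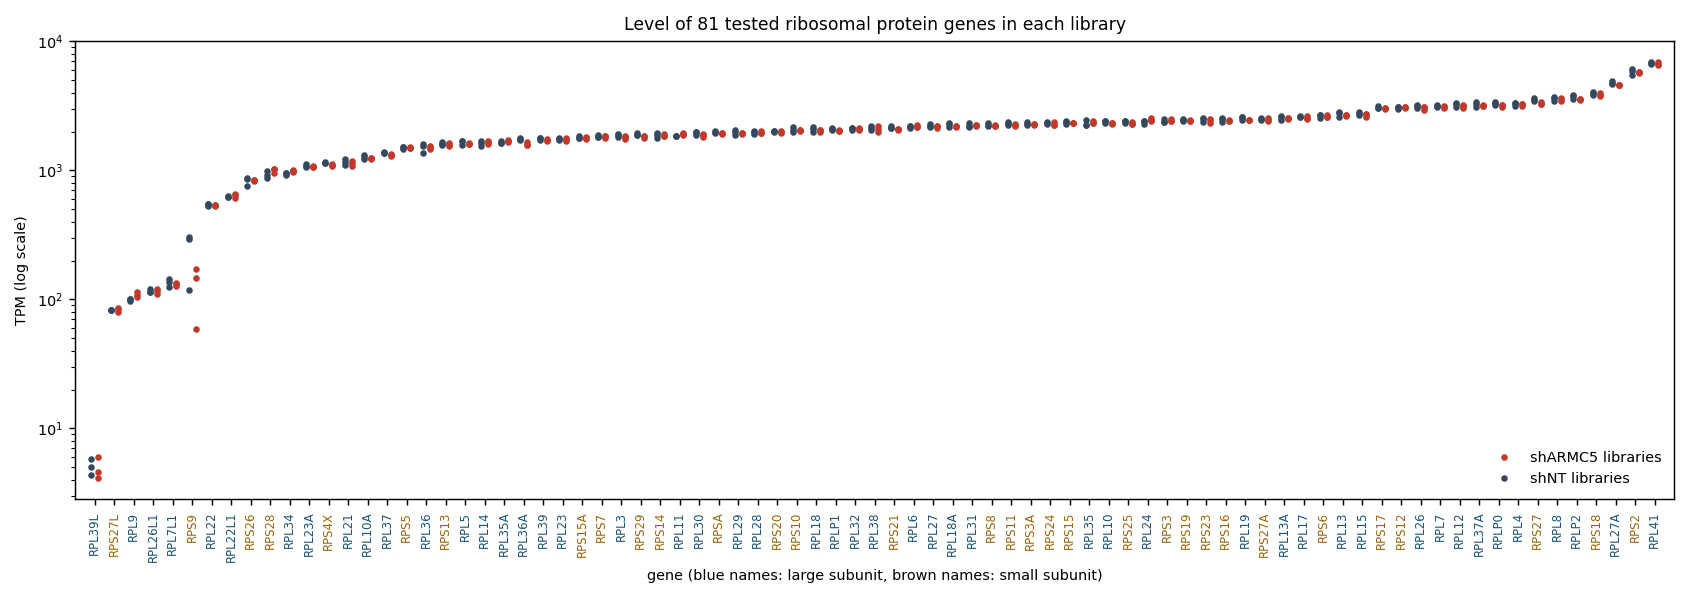
Level in TPM (vertical axis, log scale) of the 81 tested RP genes ordered by mean (horizontal axis), with 1 point per library, 3 of shARMC5 and 3 of shNT. Of the 85 genes with a transcript 70 reach 1000 TPM, with libraries close together, and RPS9 spreads from 59.2 to 307 TPM.

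The lowest tested genes were mainly paralogs. RPL39L was at 4.112 to 5.995 TPM in shARMC5 and 4.38 to 5.77 TPM in shNT, on 50 to 79 reads, which leaves an interval of -29.1% to 35.5% for its change. RPS27L was at 80.2 to 86.5 TPM in shARMC5 and 82.0 to 83.4 TPM in shNT, RPL26L1 at 111 to 120 and 115 to 121 TPM, and RPL7L1 at 127 to 135 and 124 to 143 TPM. With RPL9 they were the 5 lowest by mean over all 6 libraries, although in shARMC5 alone RPS9 had a lower mean (125 TPM) than RPL7L1 (131 TPM), and RPL26L1, RPL7L1 and RPL9 had overlapping or adjoining ranges. None of the 4 paralogs passed the test. RPL10L and RPS4Y2 had 0 reads, RPL3L had 2 or 3 reads and RPS4Y1 had 0 to 2 reads per library, so these 4 were not tested. RPL7A had no matched transcript and was not analysed here.

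Paralogs with reads held small shares beside their partners, except RPL22L1. RPL22L1 stood at 113%, 121% and 123% of RPL22 by TPM in shARMC5 and at 113%, 117% and 115% in shNT. With the TPM of RPL22 pseudogenes added to RPL22, also tried after the data were seen, it stood at 54.9% to 61.3% over the libraries, so which of the pair is higher depends on how those reads are divided. RPL7L1 stood at 4.23% ± 0.101 of RPL7 in shARMC5 and 4.27% ± 0.366 in shNT, RPL26L1 at 3.78% ± 0.261 and 3.74% ± 0.053 of RPL26, and RPL39L at 0.285% ± 0.063 and 0.287% ± 0.039 of RPL39 (SD, n = 3). RPS27L stood at 2.64%, 2.49% and 2.46% of RPS27 in shARMC5 and at 2.36%, 2.29% and 2.39% in shNT. Only for this last of the 5 ratios compared did the groups not overlap, and P was 0.1 by exact permutation (two-sided, and 0.5 after Benjamini-Hochberg adjustment over the 5), the lowest the design allows; these ratio tests were added after the data were seen. RPL10 and RPL3 had log2 fold changes of -0.02 and -0.04, RPS4X of -0.03, RPL7 of -0.0036, RPL22 of -0.026, RPL22L1 of 0.033, RPL26 of -0.0058 and RPL39 of -8.28e-05, with none called.

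RP genes with and without the TOP letters at the annotated start are given side by side, with no test of their difference, and beside 7.75% of all genes called. Of the 48 with them 46 were tested and 2 were called, with a median log2 fold change of 0.0015. Of the 18 without them 16 were tested and 1 was called, with a median of 0.00078. Median levels were 2289 TPM and 1542 TPM. The second group holds RPL9, RPS27L and RPL7L1 but also abundant genes such as RPL4.

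RP genes had 796 annotated transcripts, not all of them with reads. The canonical transcripts held 54.9%, 54.6% and 54.7% of their TPM in shARMC5 and 55.1%, 55.2% and 54.9% in shNT, groups that did not overlap by a narrow margin. Transcripts annotated as targets of nonsense-mediated decay held 1.84% to 1.91%. Those annotated with a retained intron held 5.37%, 5.44% and 5.33% in shARMC5 and 5.28%, 5.21% and 5.30% in shNT, groups that did not overlap. As a share of reads the same transcripts held 6.45%, 6.52% and 6.42% in shARMC5 and 6.41%, 6.28% and 6.48% in shNT, and on that scale the groups overlapped. A single such transcript, RPL14-208, carried 93.5% of the TPM of RPL14. RPL21-205, a decay target by annotation, carried 51.7% of RPL21 and RPL22L1-204 carried 28.5% of RPL22L1. These shares are estimates, since short reads shared by transcripts are divided by the quantification.

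Pseudogenes named after RP genes, 1585 in all, drew reads equal to 2.003% to 2.076% of those of the RP genes. For most parents the amount was small, and 6 pseudogenes held 89.7% of it. RPL23A shared most, since its pseudogenes were given 106% of the reads of RPL23A itself, and the figures were 48.6% for RPL21, 41.3% for RPS28 and 29.5% for RPL22. The levels of these 4 parents are therefore uncertain. Of 56 pseudogenes tested 0 were called by edgeR, beside 7.75% of all genes.

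Of 70 ribosome biogenesis factors 8 were called higher and 0 lower (11.4%), beside 7.75% of all genes called, 4.44% called higher, and 15.3% called among genes of at least 100 CPM. The median log2 fold change was 0.05, with 57 above 0, and the median level was 102 CPM. The 4 largest increases among the called genes were SBDS (0.13, adjusted P = 0.0444), which releases eIF6 from the large subunit, MRTO4 (0.13, adjusted P = 0.0781), EBNA1BP2 (0.12, adjusted P = 0.0296) and RPF2 (0.12, adjusted P = 0.0822), which brings 5S RNA to the large subunit. Of 18 alternatives the call was lost in 6 for SBDS, 9 for MRTO4, 6 for EBNA1BP2 and 10 for RPF2, and the groups overlapped for MRTO4. Among genes of at least 100 CPM the median was 0.016. Of 13 tested polymerase I genes POLR1G was called higher (0.15, adjusted P = 0.0906), and of 18 RP chaperones and import factors GRWD1 was called higher (0.11, adjusted P = 0.0605). POLR1G was not called in 12 of 18 alternatives and GRWD1 in 11, and with the length offset the log2 fold change of GRWD1 was 0.062 (adjusted P = 0.649 in edgeR).

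Other TOP mRNAs, mostly translation factors, had a median log2 fold change of 0.03 over 30 genes, with 2 called higher and 0 lower (6.67%, beside 7.75% of all genes called and 15.3% of those of at least 100 CPM). These were PABPC4 (0.13, adjusted P = 0.00848), a poly(A)-binding protein, and NPM1 (0.10, adjusted P = 0.0592), a nucleolar chaperone, whose call was lost in 8 of 18 alternatives, against 1 for PABPC4. Of 18 genes that control TOP mRNA translation, EIF4EBP2 was higher (0.21, adjusted P = 0.000326) and TSC2, a brake on mTORC1, was lower (-0.15, adjusted P = 0.0672). EIF4EBP2 was called in all 18 alternatives and TSC2 was not called in 6, among them those without replicate 2 of shARMC5 (adjusted P = 0.301 in edgeR) and without replicate 1 or 3 of shNT (0.195 and 0.222). With the length offset the log2 fold change of TSC2 was -0.56 (adjusted P = 0.00517 in edgeR). Its level was 27.2 ± 1.61 TPM in shARMC5 and 40.5 ± 2.82 TPM in shNT (SD, n = 3). Of 16 hosts of small nucleolar RNAs 2 were tested and 0 passed in edgeR, also 0 at an unadjusted P below 0.05. Of 77 tested mitochondrial RP genes 3 (3.90%) were called, all higher, beside 7.75% of all genes called and 4.44% called higher, with a median of 0.02. They were MRPL46 (0.18, adjusted P = 0.0894), MRPL38 (0.15, adjusted P = 0.0309) and MRPL42 (0.13, adjusted P = 0.0536), and their calls were lost in 11, 5 and 8 of 18 alternatives.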

How the data were processed

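Per the labels, poly(A)+ RNA-seq libraries of SPT5-AID DLD-1 cells were processed by the authors with cutadapt 4.2 and Salmon 1.9.0 on hg38; the transcript set is not given in the sources used here. The authors deposited each transcript's estimated counts (expected counts), TPM and effective length, as Salmon computed them. Of 177456 transcripts 165533 matched GENCODE 44 by identifier without version; the other 11923, with 2.96% to 3.04% of reads, were left out. Counts and TPM were summed per gene, and expected counts were rounded to whole numbers. Testing was limited to genes reaching 10 counts in 3 or more libraries and used edgeR 4.0.16 (robust quasi-likelihood F test, TMM factors, all 6 libraries, condition only), adjusting P values by Benjamini-Hochberg with a limit of 0.1; DESeq2 1.42.0 was an alternative. SE is the log2 fold change over the root of F, and 95% intervals use the fit's degrees of freedom. The script was tested on simulated data.

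Named genes were ARMC5, called RP genes whose groups do not overlap, the 5 highest and 5 lowest tested RP genes by TPM, 8 paralog pairs, RPL5, RPL11, RACK1, FAU, untested RP genes, and up to 4 called genes each way per related list; RPL36A, RPL34, RPL14, RPS9 and the pseudogenes were added once values had been seen. One gene of the rule is not reported here. The RP genes and all lists were chosen with earlier results of these data known. Fits left out in turn each replicate, and changed normalization, filter, length offset, replicate block, unmatched transcripts and pseudogene reads. Strand is not stated, so antisense reads cannot be told apart.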

Additional observations from a re-analysis of the deposited data

How the results depend on the processing

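Of 81 RP genes 3 were called, all of the large subunit. DESeq2 without an offset called 4, 3 higher and 1 lower, with RPL14 added, beside 877 of all 13737 tested genes (6.38%). An offset for transcript length gave 0 in edgeR and 1 in DESeq2 (RPL36A), and keeping unmatched transcripts gave 1. At a threshold of 0.05 only RPL9 stayed called (adjusted P = 0.0385 in edgeR). The share of all genes at that threshold is not given here, so nothing is read from it about RP genes as a set. Counts for the large subunit were the same under each of these settings. Leaving out 1 replicate at a time gave 0 to 3 RP genes, 0 to 3 of the large subunit and 0 to 1 of the small subunit: 0 without replicate 2 or replicate 3 of shARMC5, only RPL9 without replicate 3 of shNT, and RPL36A and RPS27 without replicate 1 of shNT. The cause of these differences was not tested. Over all genes the count of 1064 became 234 with the length offset, 568 with DESeq2 and that offset, 532 with unmatched transcripts kept, and 536 to 1085 with a replicate left out. Scaling by library size alone turned 610 higher and 454 lower genes into 458 and 495. ARMC5 was called in all 18 alternatives. The median log2 fold change of RP genes ran from -0.0209 without replicate 1 of shNT to 0.0164 without replicate 2 of shNT, and their read share in shARMC5 over that in shNT from 0.982 (on TPM) to 1.001 (without replicate 2 of shNT), moves smaller than the SD of the shNT libraries, which was the wider of the 2 groups. Without RPS9, left out after seeing the data, the median was 0.00018.

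With the replicate number as a block, 9 of the 81 RP genes were called, beside 1766 of all 13737 tested genes (12.9%). Of the large subunit 7 were called, all higher (RPL6, RPL34, RPL24, RPL11, RPL9, RPL35A and RPL14). Of the small subunit 2 were called, both lower (RPS9 and RPS27). RPL36A, called in the main fit, was not called with the block (adjusted P = 0.219 in edgeR). Deviations of same-numbered libraries correlated at 0.0065, 0.030 and 0.059. Replicate 1 of shARMC5 correlated better with replicate 2 of shNT (0.025), and the remaining differently numbered libraries correlated at -0.054 to -0.0014. Replicates 2 and 3 of shARMC5 thus matched their own number best, and replicate 1 did not. All these values are small, and the labels give numbers without naming pairs. The main fit therefore used condition only, and whether the numbers mark pairs was not settled.

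Uncalled genes near 0 changed sign in some fits. Without 1 replicate, log2 fold changes ranged from -0.019 to 0.036 (RPL41), -0.026 to 0.030 (RPS2), -0.020 to 0.0079 (RPS18), -0.19 to 0.091 (RPL39L), -0.032 to 0.029 (RPS27L), -0.017 to 0.0014 (RPL7L1), -0.021 to 0.017 (RPL7), -0.048 to 2.98e-05 (RPL22), -0.031 to 0.023 (RPL26), -0.040 to 0.029 (RPL39), -0.021 to 0.012 (RPL5), and -0.015 to 0.044 (FAU). RPL41 was at -0.0060 with library size only and -0.00015 with DESeq2 and a length offset. RPS27L was at 0.0018 with TMM without RP genes, 0.031 with the length offset in edgeR and 0.031 in DESeq2, 8.3e-05 with the replicate block and 0.00058 with pseudogene reads added. RPL39 was at 0.0020 with TMM without RP genes and 0.00089 with the replicate block. RPL39L rests on 50 to 79 reads per library (SE 0.22).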
